A study of Mus musculus with 2 samples.

Results

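The 10 genes described here encode histone chaperones, proteins that escort histones and place them on DNA or take them off it: Ssrp1, Supt16, Asf1a, Asf1b, Chaf1a, Chaf1b, Hira, Nap1l1, Daxx and Atrx. They were chosen by name, as 10 of the 21887 coding genes of the mouse annotation on chromosomes 1 to 19, X and Y, and all 10 were found. The assay was ATAC-seq, where Tn5 transposase cuts accessible DNA and adds sequencing adapters to it, and the cells were AB22, a murine line of malignant mesothelioma. Each group had 1 library: shCTRL cells carried a control hairpin and shHMGB1 cells a hairpin against Hmgb1, the gene of the abundant DNA-bending chromatin protein HMGB1. Both hairpins came from the lentiviral vector pTRIPZ. In both groups cells were infected at a multiplicity of 20, selected with puromycin at 4 μg/mL, and given doxycycline at 1 μM for 7 to 10 days to induce the hairpin, and the labels give no irradiation dose for either library. For both libraries the labels also give 5% oxygen in the incubator, 10% FBS and 2 mM glutamine. Nothing in them says whether the transduced cells were a single clone. With 1 library a group, a difference between the libraries has no replicate check, no test was made, and every interval below covers counting error only.

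Histone chaperones divide the work by histone and by occasion. SSRP1 and SPT16 (encoded by Supt16) form FACT, which loosens and rebuilds nucleosomes ahead of and behind polymerases, and SSRP1 carries an HMG box, the DNA-binding fold that also makes up HMGB1. ASF1A and ASF1B hold H3-H4 dimers and pass them on to CAF-1 or to HIRA. CAF-1, which has the products of Chaf1a and Chaf1b among its subunits, assembles nucleosomes on newly replicated DNA. HIRA deposits the H3 variant used outside replication. DAXX and the remodeller ATRX deposit that variant at repeats and telomeres, and NAP1L1 mainly handles H2A-H2B.

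The promoters of 3 pairs of genes whose products share a task are shown, and those of Ssrp1, Supt16, Hira and Nap1l1 are not. Shown are the ASF1 pair, which had the highest start sites of the 10, and the CAF-1 pair. The DAXX-ATRX pair, which holds the gene that differed most between the libraries, is shown too. Each promoter is 300 bases long, from 250 before to 50 after a start site, and was taken from RefSeq on GRCm38.p6 (mm10). Asf1a lies at chr10:53596711-53597010 on the plus strand, Asf1b at chr8:83955444-83955743 (plus), Chaf1a at chr17:56040166-56040465 (plus), Chaf1b at chr16:93883651-93883950 (plus), Daxx, by the first of its 3 listed starts, at chr17:33909195-33909494 (plus), and Atrx at chrX:105929323-105929622 (minus). Capitals mark matches, on either strand, to any of 9 motifs: CCAAT (the NF-Y box), GGGCGG (the GC box bound by SP factors), GCGGGAA (an E2F site), CACGTG (an E-box), TGACGTCA (the cAMP response element), CCGGAAG (an ETS site), ATGGCGGC (a YY1 site), GCATGCGC (an NRF1 site) and TTTGAA (the cell cycle homology region).
Asf1a: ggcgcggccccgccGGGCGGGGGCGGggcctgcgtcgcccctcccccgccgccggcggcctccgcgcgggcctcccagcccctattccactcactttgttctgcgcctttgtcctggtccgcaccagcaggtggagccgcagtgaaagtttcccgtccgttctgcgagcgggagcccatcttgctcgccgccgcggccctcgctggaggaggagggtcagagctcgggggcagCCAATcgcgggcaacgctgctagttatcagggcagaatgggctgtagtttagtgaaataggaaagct
Asf1b: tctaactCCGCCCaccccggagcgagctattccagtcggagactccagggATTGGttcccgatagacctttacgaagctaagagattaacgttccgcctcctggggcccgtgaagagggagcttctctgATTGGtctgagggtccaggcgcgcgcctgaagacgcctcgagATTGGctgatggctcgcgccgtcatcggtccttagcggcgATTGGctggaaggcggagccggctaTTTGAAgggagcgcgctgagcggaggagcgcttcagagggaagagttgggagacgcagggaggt
Chaf1a: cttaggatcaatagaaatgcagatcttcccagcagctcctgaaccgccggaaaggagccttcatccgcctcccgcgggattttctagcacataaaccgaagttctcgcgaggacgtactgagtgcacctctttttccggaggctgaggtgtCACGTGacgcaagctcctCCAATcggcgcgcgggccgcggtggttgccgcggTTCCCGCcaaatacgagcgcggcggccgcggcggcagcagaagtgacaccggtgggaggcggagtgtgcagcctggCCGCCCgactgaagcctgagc
Chaf1b: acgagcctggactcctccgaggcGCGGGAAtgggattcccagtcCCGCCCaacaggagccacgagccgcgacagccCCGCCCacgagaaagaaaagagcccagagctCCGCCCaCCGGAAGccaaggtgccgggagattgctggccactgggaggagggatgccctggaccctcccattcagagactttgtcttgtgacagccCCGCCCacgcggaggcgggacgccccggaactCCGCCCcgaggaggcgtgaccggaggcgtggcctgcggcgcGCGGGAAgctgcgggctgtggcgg
Daxx: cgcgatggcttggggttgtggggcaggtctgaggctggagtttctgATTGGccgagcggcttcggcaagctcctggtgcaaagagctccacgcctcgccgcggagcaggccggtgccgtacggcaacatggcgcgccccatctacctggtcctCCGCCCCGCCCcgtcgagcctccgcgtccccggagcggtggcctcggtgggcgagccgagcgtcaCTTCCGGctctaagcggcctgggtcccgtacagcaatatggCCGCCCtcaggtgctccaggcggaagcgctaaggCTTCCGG
Atrx: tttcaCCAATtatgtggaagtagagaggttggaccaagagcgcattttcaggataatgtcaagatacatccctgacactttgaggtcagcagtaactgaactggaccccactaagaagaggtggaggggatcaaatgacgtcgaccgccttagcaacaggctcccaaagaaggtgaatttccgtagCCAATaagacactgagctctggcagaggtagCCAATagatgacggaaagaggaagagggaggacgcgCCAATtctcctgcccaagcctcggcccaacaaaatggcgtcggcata

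The 6 promoters differ in what they hold. The Asf1b promoter has 4 CCAAT boxes, all on the minus strand, with 1 GC box and 1 TTTGAA. The Atrx promoter also has 4 CCAAT boxes, all on the plus strand, and no other motif searched. Of 21263 promoters of coding genes, 266, or 1.25%, hold 4 or more CCAAT. That cutoff was taken from the Asf1b and Atrx promoters after their counts were seen. The Chaf1b promoter has 5 GC boxes, 2 E2F sites and 1 ETS site, and the Chaf1a promoter has 1 GC box, 1 E2F site, 1 E-box and 1 CCAAT. The Asf1a promoter has 2 GC boxes, which abut, and 1 CCAAT, and the Daxx promoter has 3 GC boxes, of which a pair overlap by 1 base, 2 ETS sites and 1 CCAAT. By the first listed start of each gene, 6 of the 10 members hold CCAAT, against 38.2% of all promoters. GGGCGG was found in 7 members, against 46.2% of all promoters and 63.7% of the promoters of genes with a matched start-site summit, defined below. GCGGGAA was found in 3 members (Chaf1a, Chaf1b and Nap1l1), against 5.95% of all and 8.53% of those promoters, and CCGGAAG in 4 (Supt16, Chaf1b, Hira and Daxx), against 11.6% and 18.4%. CACGTG was found in Supt16 and Chaf1a (7.84% of all promoters) and TTTGAA in Ssrp1 and Asf1b (16.0%), while TGACGTCA, ATGGCGGC and GCATGCGC (2.23%, 3.02% and 3.52% of all) were in no member. A match to these letters is a description and does not show that a factor binds. Atrx (50.3% G and C, 11 CpG) and the first of the 2 listed starts of Ssrp1 (48.3%, 15 CpG) were the poorest in G and C. The other members lay between 61.3% and 70.3%. The median over all promoters was 56.3% with 13 CpG. Over the promoters of genes with a matched start-site summit it was 61% with 21 CpG.

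Start sites of all 10 genes were open in both lines. A peak lay within 1 kb of a listed start site in both libraries for 10 of 10 members, against 52.9% of all coding genes. The peak lists give each summit as a fold over a single expected pileup per library, 2.79 fragments in shCTRL and 1.68 in shHMGB1, called background here, from which the whole number of overlapping fragments at a summit, its pileup, was recovered. To set the libraries side by side, a summit of each library was matched to the nearest of the other within 150 bp, and the highest matched pair at a gene's start was used. Such a pair was found for all 10 members and for 11322 coding genes in all. Over those genes the median pileup was 44 in shCTRL and 38 in shHMGB1, and over the 10 members 61 and 57.5. The lowest pileup that a list held was 10 and 7.

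**Figure D1:**
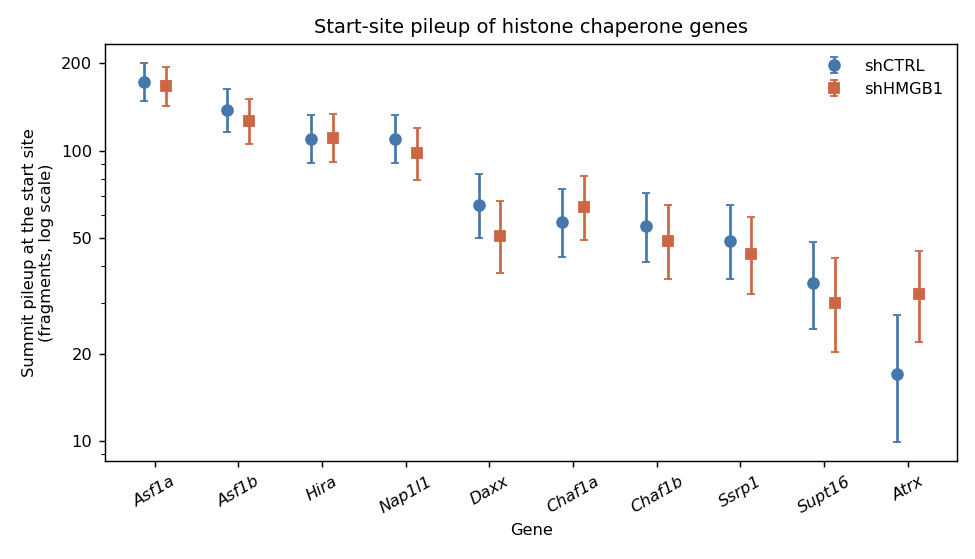
Summit pileup in fragments (log axis) at the start site of each gene in the shCTRL library (circles) and the shHMGB1 library (squares), with exact 95% Poisson intervals. The pileups run from 173 and 167 at Asf1a to 17 and 32 at Atrx, and Atrx is the gene whose points lie farthest apart.

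The genes of FACT had start sites of middling to low height. Ssrp1 (chromosome 2, 85037120 to 85047114) had a start-site pileup of 49 fragments in shCTRL, with an exact 95% Poisson interval of 36.3 to 64.8, and of 44 (32.0 to 59.1) in the shHMGB1 library. The summits lay 33 and 48 bp downstream of the first listed start, and the gene P2rx3, whose annotated end is next to the start of Ssrp1, shares this pair. The highest peak near Ssrp1, with 112 and 107 fragments, did not lie at its start but 10.7 kb downstream, past its far end and at an annotated end of Tnks1bp1. Supt16 (chromosome 14, 52160419 to 52197239, minus strand) had 35 (24.4 to 48.7) in shCTRL and 30 (20.2 to 42.8) in shHMGB1, at 237 and 217 bp upstream of its start, which stood at percentiles 37.3 and 38.9 of the coding genes with a matched summit. The highest shHMGB1 summit there, 33 fragments, lay 68 bp upstream. For both genes of FACT the libraries' intervals overlapped.

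The ASF1 genes had the highest start sites of the 10. Asf1a (chromosome 10, 53596961 to 53609225) had 173 fragments (148.2 to 200.8) in shCTRL and 167 (142.6 to 194.3) in shHMGB1, at percentiles 97.7 and 97.4 of those genes. The whole gene lies inside Mcm9, whose own start is at the far side, so its peaks lie in both genes. Its summits lay 99 and 97 bp upstream of the start, at bases 152 and 154 of the promoter printed above, between its GC boxes and its CCAAT box. Asf1b (chromosome 8, 83955694 to 83970195) had 138 (115.9 to 163.0) and 127 (105.9 to 151.1), at percentiles 95.2 and 94.2. Its summits lay 163 and 187 bp upstream, at bases 88 and 64 of the printed promoter, between the first CCAAT box and the second. Asf1a was above Asf1b by a log2 ratio of 0.40 (0.05 to 0.74) in shHMGB1, while in shCTRL the interval of 0.33 (-0.01 to 0.66) included no difference.

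Both CAF-1 genes among the members were somewhat above the middle of the coding genes with a matched summit. Chaf1a was at percentiles 64.1 and 73.9 and Chaf1b at 62.2 and 62.3. Chaf1a (chromosome 17, 56040416 to 56068026), for the large subunit, had 57 fragments (43.2 to 73.9) in shCTRL and 64 (49.3 to 81.7) in shHMGB1, 207 and 227 bp upstream of its start. Chaf1b (chromosome 16, 93883900 to 93906115), for the middle subunit, had 55 (41.4 to 71.6) and 49 (36.3 to 64.8), 164 and 169 bp upstream. In the printed promoters these summits lie at bases 44 and 24 of Chaf1a, before all its marked motifs, and at bases 87 and 82 of Chaf1b, among its GC boxes. Intervals of the 2 libraries overlapped at both genes.

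Hira and Nap1l1 had the same pileup in shCTRL. Hira (chromosome 16, 18876750 to 18970309) had 110 fragments (90.4 to 132.6) in shCTRL and 111 (91.3 to 133.7) in shHMGB1. Its summit pair lay 208 and 205 bp upstream and is shared with the mitochondrial ribosomal protein gene Mrpl40, which is read in the opposite direction. Nap1l1 (chromosome 10, 111472882 to 111498150) had 110 (90.4 to 132.6) and 98 (79.6 to 119.4), 82 and 100 bp upstream of its listed start. Daxx (chromosome 17, 33909404 to 33915590) had 65 (50.2 to 82.8) and 51 (38.0 to 67.1), 160 and 192 bp upstream of the first of its 3 listed starts. The libraries' intervals overlapped at these 3 genes as well.

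Atrx had the lowest start site of the 10 in shCTRL and was the gene that differed most. Atrx (chromosome X, 105797615 to 105929372, minus strand) had 17 fragments (9.9 to 27.2) in shCTRL and 32 (21.9 to 45.2) in shHMGB1, where Supt16 with 30 was lower. These pileups stood at percentiles 8.34 and 41.9 of the coding genes with a matched summit. Over the background of each library they were 6.09-fold and 19.0-fold. The libraries' pileup intervals overlapped at Atrx too, as at every other member. These intervals are not scaled between the libraries, so their overlap does not measure a difference. The summits lay 10 and 2 bp downstream of the listed start, 8 bp apart, next to the CCAAT box nearest the start, which takes bases 254 to 258 of the printed promoter.

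When the 10 members were ordered by pileup, few neighbours in that order stood apart. In shCTRL, 2 of 9 steps had an interval above 0, from Nap1l1 to Daxx (110 and 65) and from Supt16 to Atrx (35 and 17). In shHMGB1 there were also 2, from Asf1a to Asf1b and from Nap1l1 to Chaf1a (98 and 64). So Asf1a, Asf1b, Hira and Nap1l1 formed the upper part of the order in both libraries, above Daxx, Chaf1a, Chaf1b and Ssrp1. All summits but those of Ssrp1 and Atrx lay 82 to 237 bp upstream of a listed start, and matched summits were 2 to 32 bp apart between the libraries.

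Relative to the median coding gene, 9 of the 10 start sites had a counting interval that included no difference. The log2 ratio of shHMGB1 over shCTRL, less its median over all 11322 genes (-0.19), had a median of 0.06 over the members, and 0.04 without Atrx. The quartiles over all genes were -0.28 and 0.24. The members' summed pileups, 809 in shCTRL and 773 in shHMGB1, gave 0.13 (-0.02 to 0.27). Atrx stood at 1.11 (0.21 to 2.05), the only member more than 1.5-fold above the median gene, where 4.20% of all genes were, and the only one with an interval wholly above 0, where 6.24% of genes were. No member was 1.5-fold below it or had an interval wholly below 0, where 9.08% and 2.65% of genes were. One call in 10 members is a small number to set against such shares, and nothing particular to chaperone genes can be read from it. The other ratios were 0.36 (-0.18 to 0.90) at Chaf1a, 0.21 (-0.19 to 0.60) at Hira, 0.14 (-0.17 to 0.46) at Asf1a, 0.07 (-0.29 to 0.43) at Asf1b, 0.04 (-0.58 to 0.65) at Ssrp1, 0.03 (-0.56 to 0.61) at Chaf1b, 0.03 (-0.38 to 0.43) at Nap1l1, -0.03 (-0.78 to 0.72) at Supt16 and -0.16 (-0.72 to 0.39) at Daxx. Such intervals leave room for differences of 1.5-fold at all of these but Asf1a, Asf1b and Nap1l1, whose intervals end inside it on both sides. Relative to genes of the same decile of height, Asf1a, Asf1b, Nap1l1 and Hira stood below 0 (-0.07, -0.14, -0.11 and -0.01) and Supt16 above it (0.09), so the direction of these 5 depends on the scaling.

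**Figure D2:**
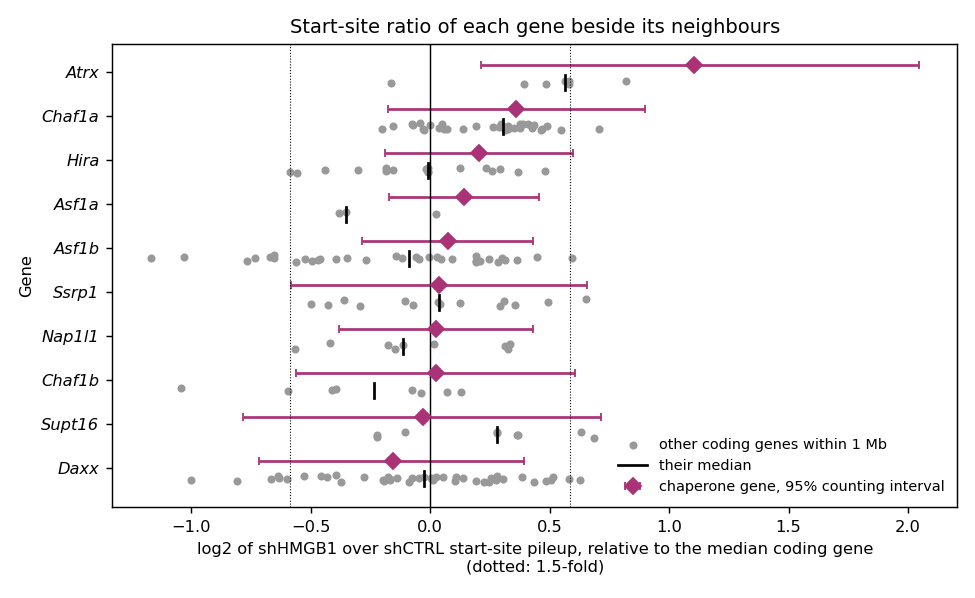
Log2 ratio of shHMGB1 over shCTRL start-site pileup relative to the median coding gene for each chaperone gene (diamonds, 95% counting interval), above the ratios of other coding genes within 1 Mb (grey points) and their median (black bar). Atrx, at 1.11, lies to the right of all 7 of its neighbours, whose median of 0.56 is itself right of the median gene at 0.

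The genes around Atrx were also above the median gene. Of 17 other coding genes within 1 Mb, 7 had a start-site pair of their own, and 6 of these lay above the median gene. Pgk1, the glycolytic kinase gene, had 84 and 103 fragments (0.49, 0.06 to 0.92) and Magt1 had 58 and 76 (0.58, 0.07 to 1.10). The copper transporter gene Atp7a had 40 and 46 (0.39, -0.25 to 1.04), Pbdc1 41 and 53 (0.56, -0.05 to 1.19), Taf9b 26 and 34 (0.58, -0.20 to 1.37) and Cox7b 11 and 17 (0.82, -0.36 to 2.06). Only Magee1, with 32 and 25, lay below it (-0.16, -0.98 to 0.64). Atrx was above all 7 of them, but relative to their median of 0.56 its log2 ratio was 0.54 (-0.35 to 1.48), an interval that includes no difference. Over the whole of chromosome X, 300 other start sites had a median of 0.14, and relative to that Atrx stood at 0.96 (0.07 to 1.90). Chromosome X held 1445 peaks in shCTRL and 1777 in shHMGB1, against 104336 and 92282 in all. The part of this shift in the Atrx value was not tested.

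Neighbours of other members lay on either side of the median gene. Around Supt16, 6 of 9 neighbouring start sites were above the median gene and their median was 0.28, with Hnrnpc (103 and 145; 0.69, 0.31 to 1.06) and the remodeller gene Chd8 (62 and 84; 0.63, 0.14 to 1.13) highest. Mettl3 followed at 0.37 (-0.23 to 0.97). Supt16 relative to them was -0.31 (-1.06 to 0.43). Around Chaf1a, 34 neighbours had a median of 0.31, almost that of Chaf1a itself, and the difference was 0.05 (-0.48 to 0.59). The farthest were Slc25a23 (77 and 110; 0.71, 0.27 to 1.15), Vmac (0.55, 0.09 to 1.01) and Fem1a (0.49, 0.10 to 0.89), all with intervals above 0. Around Asf1a only 3 neighbours were measured (Cep85l at -0.35, Mcm9 at 0.02 and Man1a at -0.38), with a median of -0.35, and relative to them Asf1a stood at 0.49 (0.18 to 0.81). With 3 genes that reference is weak, and relative to its whole chromosome Asf1a stood at 0.22 (-0.10 to 0.53). The remaining 6 members differed from their neighbours by -0.13 (Daxx, 43 neighbours) to 0.26 (Chaf1b, 8 neighbours), each with an interval that included 0. Single neighbours lay farther out than these members. Near Asf1b, Ndufb7 had 72 and 28 fragments (-1.17, -1.85 to -0.52), with Adgrl1 at -1.03 (-2.34 to 0.16) and Il27ra at -0.77 (-1.67 to 0.09). Near Chaf1b, Dop1b had 40 and 17 (-1.04, -1.95 to -0.19), with Pigp at -0.60 (-1.81 to 0.55) and Hlcs at -0.41 (-1.20 to 0.35). Near Daxx, Rgl2 had 32 and 14 (-1.0, -2.02 to -0.05), with Stk19 at -0.81 (-1.85 to 0.17) and Angptl4 at -0.67 (-1.64 to 0.26). The neighbours named near these 3 members were picked as the farthest out, and all lay below the median gene. Over all genes 9.08% were more than 1.5-fold below it and 4.20% above. Counting every neighbour, 14 lay above it and 20 below around Asf1b, 2 and 6 around Chaf1b, and 21 and 22 around Daxx. Near Ssrp1, the catenin gene Ctnnd1 had 53 and 73 (0.65, 0.12 to 1.19), with Clp1 at -0.50 (-1.03 to 0.02) and Tfpi at 0.49 (-0.66 to 1.67). Near Hira, Septin5 stood at -0.56 (-1.39 to 0.24) and Cdc45 at 0.48 (-0.06 to 1.03). Near Nap1l1 they were Glipr1l1 (-0.57, -1.68 to 0.49), Glipr1l3 (-0.42, -1.33 to 0.47) and Bbs10 (0.34, -0.16 to 0.83). Near Ssrp1, Hira and Nap1l1 they lay on both sides of it. The intervals of members relative to neighbours are those of the member alone and hold no error of the neighbours' median.

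**Figure D3:**
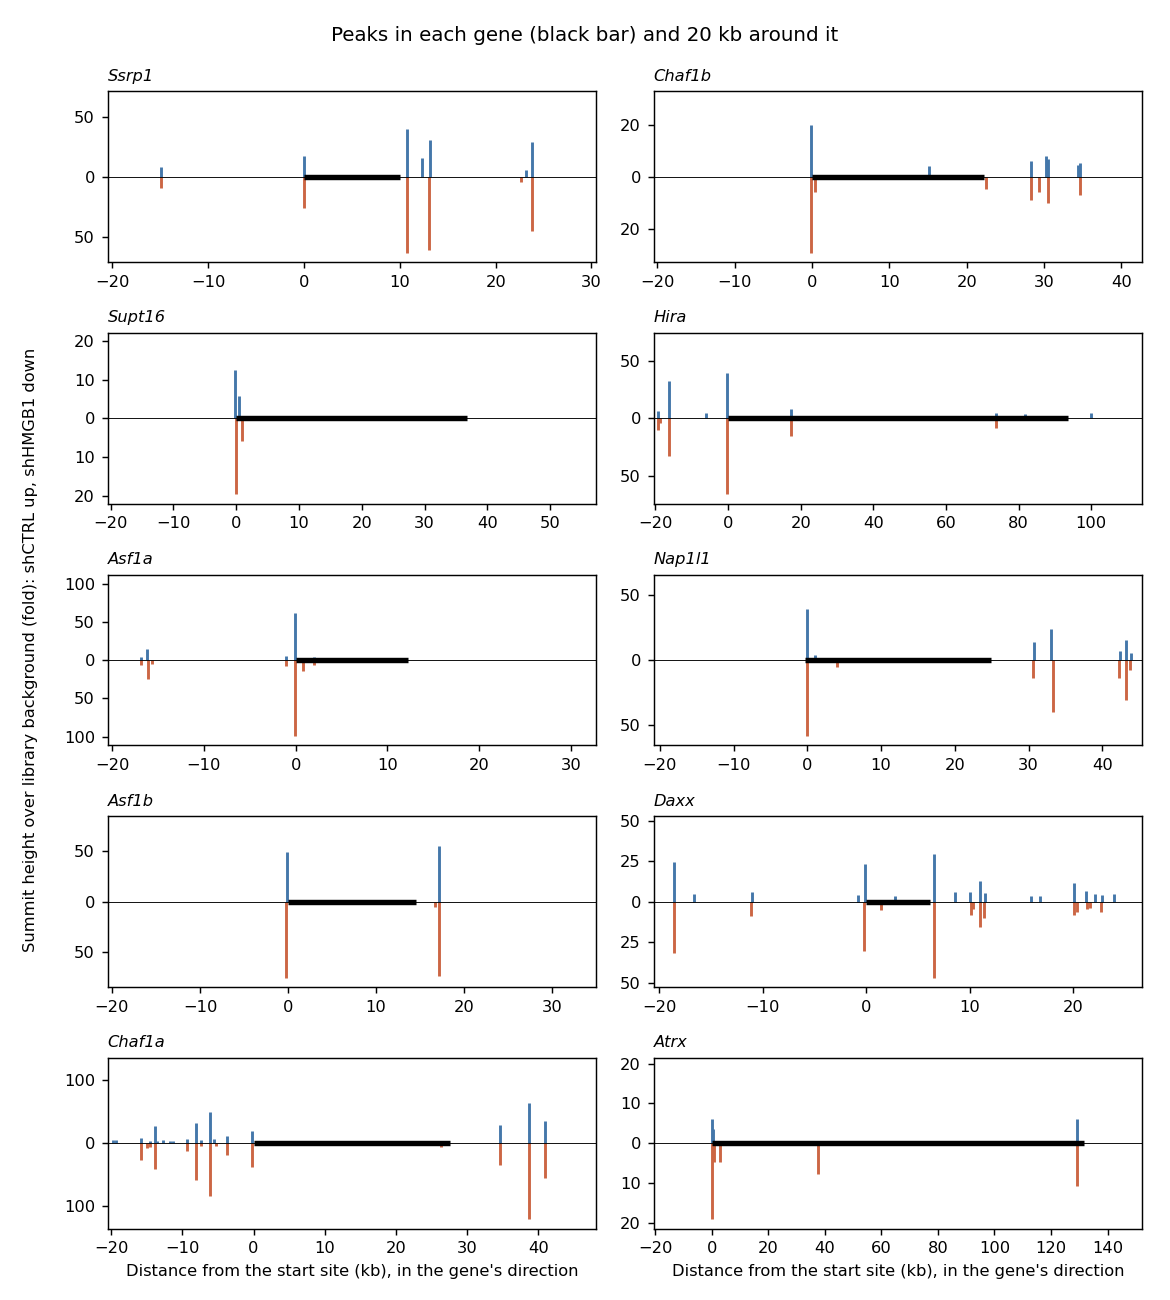
Summit height over library background for every peak in each gene (black bar, drawn from its start in its own direction) and 20 kb around it, with shCTRL upward and shHMGB1 downward, against distance from the start site in kb; vertical scales differ between panels. Supt16, Asf1b and Atrx have few peaks besides the start site, while Chaf1a and Daxx have 20 and 18 in shCTRL.

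Most peaks of the 10 loci were not at the members' own start sites. With 20 kb on either side, the loci held 79 peaks in shCTRL and 72 in shHMGB1. The ratio of these numbers, 1.10, compares with 1.21 summed over all coding genes taken the same way. Of the 10 members, 4 had more peaks in shCTRL, where 34.7% of coding genes did, 3 had more in shHMGB1, where 29.0% did, and 3 had equal numbers. Of the shCTRL peaks 13 were at a member's start and 13 at the start or end of another gene, 9 were elsewhere in the member and 44 in the flanks. The shHMGB1 list had 15, 15, 9 and 33. Chaf1a had the most, 20 and 15, many of them upstream in Sh3gl1, followed by Daxx with 18 and 14, which lies among Kifc1, Zbtb22, Tapbp and Rgl2. Supt16 had 2 and 2, both within 1 kb of its start. Asf1b had 2 and 3, the start site and the start of the neighbouring protein kinase gene Prkaca (155 and 125). Atrx had 3 and 5, with a low peak near its far end, 129 kb from the start, of 17 and 18 fragments. Ssrp1 had 7 and 6, Asf1a 5 and 7, Chaf1b 7 and 7, Hira 8 and 6 and Nap1l1 7 and 7.

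Peaks without a counterpart were low. Of the shCTRL peaks in these loci 58, or 73.4% (exact 95% interval 62.3 to 82.7), overlapped a shHMGB1 peak by at least 1 bp, where 60.1% of the whole list did, and of the shHMGB1 peaks 58, or 80.6% (69.5 to 88.9), overlapped a shCTRL peak, where 69.0% of that list did. The 21 shCTRL peaks without a counterpart had pileups of 10 to 16 and the 14 of shHMGB1 had 7 to 13, whereas shared peaks had medians of 33 and 25.5. The shares in the loci and in the whole lists were not matched for peak height. Among the unshared were an shHMGB1 peak in the body of Atrx, 37.5 kb from its start, with 13 fragments, and an shCTRL peak of 16 at Supt16, 402 bp downstream of its start.

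Within the loci 125 summits were matched, and the start site of Atrx was among the most raised of them. The log2 ratios relative to the median gene ran from -1.39 to 1.11, with a median of 0.00, beside -0.06 over all 105356 matched summits. Of the 125, 8 were more than 1.5-fold above the median gene (6.40%, where 7.51% of all matched summits were) and 13 more than 1.5-fold below it (10.4%, where 13.8% were). The highest was 14.2 kb downstream of the start of Ssrp1, near Tnks1bp1, with 19 and 36 fragments (1.11, 0.27 to 2.00), and next to Atrx came a site 15.7 kb upstream of Chaf1a with 24 and 44 (1.07, 0.32 to 1.85). The lowest, with 24 and 8 (-1.39, -2.76 to -0.19), was on the edge of the Prkaca peak near Asf1b. A site 367 bp inside Asf1a had 28 and 10 (-1.29, -2.50 to -0.21), on the flank of the peak whose main summit had an interval that included no difference. A site 30.8 kb downstream of the start of Nap1l1 had 39 and 14 (-1.29, -2.28 to -0.37). The highest shHMGB1 summit of that peak, 30.6 kb downstream, held 23, so the size of this drop depends on which summit was matched. A site 16.4 kb upstream of Hira had 90 and 55 (-0.52, -1.03 to -0.02). Summits of 1 peak share fragments and are not independent.

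Nucleosome-free regions lay near the starts of 8 members in shCTRL and 7 in shHMGB1. These are intervals the authors listed separately, each with a mean nucleosome occupancy (a fraction) and a density of insertions per bp. Within 1 kb of a listed start, 7 members had such a region in both libraries, where 37.4% of genes with a matched start summit did. Chaf1b had one in shCTRL alone (18.8% of genes), none had one in shHMGB1 alone (13.3%), and Asf1b and Chaf1a had none in either (30.4%). A listed start was itself covered in both libraries at Ssrp1, Asf1a, Nap1l1 and Daxx, where 18.2% of genes with a listed start and a matched summit were. It was covered in shCTRL alone at Supt16 and Chaf1b (15.8%), in shHMGB1 alone at Atrx (12.4%), and in neither at Asf1b, Chaf1a and Hira (53.6%). None of these shares was matched for height. The members' median start-site pileup was 61 in shCTRL and 57.5 in shHMGB1, where genes with a matched summit had 44 and 38.

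**Figure D4:**
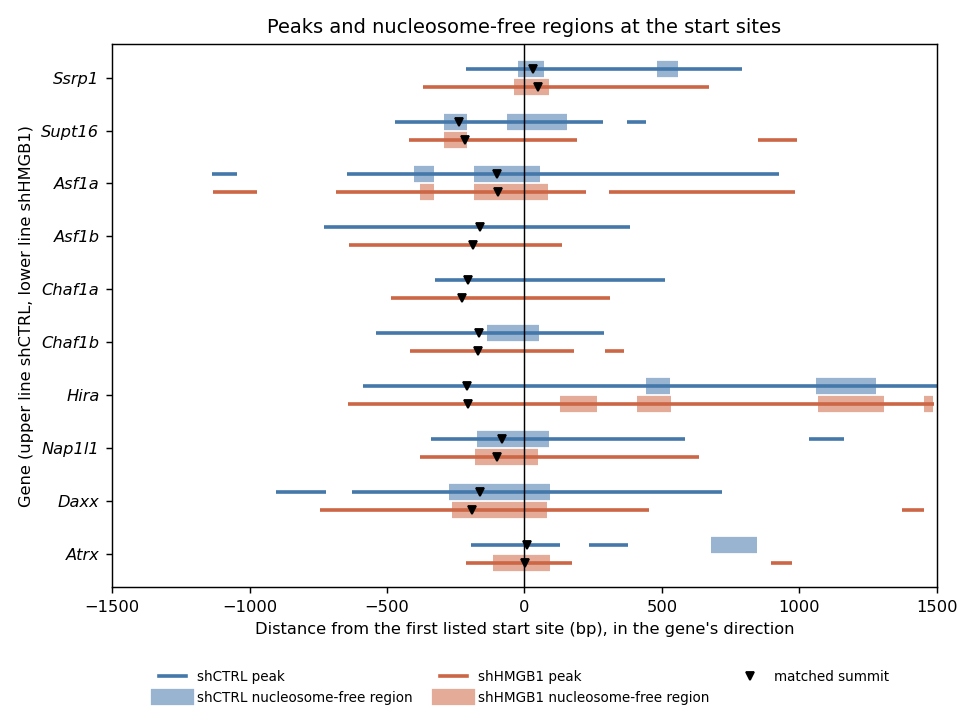
Peaks (thin lines) and nucleosome-free regions (thick bars) within 1500 bp of the first listed start of each gene, in its own direction, with shCTRL above shHMGB1; triangles mark the matched summits. At Atrx the shHMGB1 region spans the start, from 113 bp before to 94 bp after it, while the shCTRL region begins 678 bp downstream; Asf1b and Chaf1a have peaks but no region.

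At Atrx the shHMGB1 region was 208 bp wide, from 105929278 to 105929485, with an occupancy of 0.016 and 0.726 insertions per bp. The shCTRL region near this gene lay from 105928524 to 105928694, outside any listed peak, with an occupancy of 0.015 and 0.158 insertions per bp. At Atrx the region over the start was in the library with the higher summit. Both values come from the same library, so the region is no separate evidence of a difference. At Chaf1b the shCTRL region was 188 bp wide (occupancy 0.031), from 135 bp before to 52 bp after the start, and shHMGB1 listed none in the whole locus, although its summit pileup of 49 was close to the 55 of shCTRL. At Supt16 an upstream region was listed in both (86 and 85 bp wide) and the one over the start, 220 bp wide, in shCTRL alone. The widest pair over a start was at Daxx, with 367 bp in shCTRL and 348 bp in shHMGB1 and occupancies of 0.052 and 0.065. At Nap1l1 the widths were 263 and 228 bp, and at Asf1a 240 and 270 bp with 3.33 and 2.67 insertions per bp. At Ssrp1 they were 98 and 126 bp, and the occupancies 0.020 and 0.009. At Hira the regions lay inside the gene, the nearest at 444 to 531 bp from the start in shCTRL and at 128 to 265 bp in shHMGB1, which listed the next at 411 to 533 bp. In all, the 10 loci held 34 regions in shCTRL and 26 in shHMGB1, against 16275 and 14634 in the whole lists. In each library 18 of them overlapped a region of the other, which is 52.9% of the shCTRL and 69.2% of the shHMGB1 regions, where 39.6% and 43.8% of the whole lists did. These shares were not matched for height either.

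Asf1b had a high start site without such a region. Of the 502 coding genes at least as high as Asf1b in both libraries, 21, or 4.18%, had no nucleosome-free region within 1 kb of a start in either; this comparison was chosen after the values were seen. The 155-fragment peak at the start of Prkaca, in the same locus, had a region in both libraries.

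Other genes of histone chaperoning and assembly were open as well. All 26 genes of a list of chaperones and their partners had a start-site peak and a matched pair in both libraries, where 52.9% of all coding genes had a peak in both, with a median log2 ratio of 0.03. In it 2 genes were more than 1.5-fold above the median gene and 2 below, where 4.20% and 9.08% of all genes were. Supt6, for a histone chaperone that travels with the polymerase, had 15 and 29 fragments (1.14, 0.20 to 2.15), although the highest shCTRL summit there held 22, which with the highest shHMGB1 summit gave 0.62. Anp32e, whose product removes a variant H2A, had 50 and 68 (0.64, 0.09 to 1.19), but 0.06 by the highest summit of each library. Npm1, for the nucleolar chaperone nucleophosmin, had 44 and 24 (-0.68, -1.46 to 0.07), and -0.33 by the highest summits. Setdb1, for a histone methyltransferase that works with chaperones, had 23 and 13 (-0.63, -1.73 to 0.41), and -0.60 by the highest summits. By that measure Set (50 and 25, -0.78) and Spty2d1 (34 and 44, 0.59) were also past 1.5-fold, while their matched pairs gave -0.33 and 0.56. Which genes of the list are past 1.5-fold thus depends on the matching. Hjurp, for the chaperone of the centromeric H3 variant, was the highest of the list with 597 and 599 fragments (0.20, 0.03 to 0.36), or -0.02 relative to genes of its own height.

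The scaling moves these ratios, and marker genes of the labelled cell type were also read. Scaled by the background of each library in place of the median gene, the median gene itself stood at 0.54, and the ratios relative to the median gene would be raised by that amount, so that Supt16 and Daxx, below the median gene, would stand at 0.51 and 0.38. As to the labelled cell type, of 6 mesothelial markers Msln and Pdpn had start-site or end peaks in both libraries. Msln had 22 and 12 fragments (-0.68, -1.83 to 0.40), more than 1.5-fold below the median gene, and Pdpn 16 and 12 (-0.22, -1.43 to 0.95), and the median of these ratios was -0.45. Their part in the results was not tested. Wt1, Calb2 and Krt19 had a peak in shCTRL alone (12 or 13 fragments) and Upk3b in neither. Of the markers of other cells, Ptprc, Epcam, Cdh1 and Pecam1 had none in either library, Spi1 had a low one in both (14 and 10), and Cd68 (14) and Cdh5 (11) had one in shCTRL alone.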

How the data were processed

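The submitters' processing notes name Trimmomatic 0.32, BWA 0.7.5-r404, SAMtools, bedtools and MACS2, and the build mm10 (GRCm38). What settings were used, whether reads were shifted for Tn5, and which program called nucleosome-free regions are not given in the sources used here. Each deposited list holds 1 library. In the deposited peak lists the score is the whole part of 10 times the −log10 q, the fold is a ratio (observed pileup plus 1 over expected plus 1), and significance is given as −log10 of p and of q. For the nucleosome-free regions, the deposited occupancies were read as fractions and the deposited insertion and bias densities as signal, from layout and range, since no header names them. The other deposited value used is the summit offset in bp.

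Pileups were recovered as fold times (expected + 1), less 1. All 180632 and 156812 summits came out whole within a fold of 0.001. Library totals were not used here. Rows of 1 interval were merged with the highest summit kept. Start sites came from the RefSeq promoter table (GRCm38.p6) for 17492 coding genes, and both annotated ends were used for 4395 others. Of several pairs in a start window, the one with the highest summed height over background was used. Neighbours counted once per distinct pair, without the member's own pair. Intervals of pileups are exact Poisson, of ratios conditional binomial and of shares Clopper-Pearson, at 95%; they cover counting error only, since without molecular identifiers fragments need not be separate molecules. The calculations used Python 3.11.15 and scipy 1.17.1 and were tested on simulated data. The members, lists and rules were chosen with earlier results of these data known. All 10 members are described. Of the chaperone list, genes past 1.5-fold or lacking a start-site peak were named. Hjurp, Set and Spty2d1 were named after their values were seen, as were the sites named inside the loci. Of neighbours, those farther from the median gene than the member were named, the farthest first, up to 3, except 1 that is not reported here. No neighbour of Atrx was farther, and its 7, with Mcm9 near Asf1a, were named because the comparison turns on them. Alternatives are in the closing section.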

Additional observations from a re-analysis of the deposited data

How the results depend on the processing

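No paired analysis was possible because each group held 1 library, and for the same reason no replicate could be left out. All 10 members kept a start-site peak in both libraries with a −log10 q of at least 5, with a window of 500 bp and, an alternative added after seeing the data, with a pileup of at least 10. The members' median log2 ratio was 0.06 with summits matched within 50 bp, 0.12 with the highest summit of each library, 0.0005 relative to genes of the same decile of height and 0.05 relative to genes with a listed start (added after seeing the data), but 0.59 relative to the library background. On that scale 5 members were more than 1.5-fold higher, a log2 ratio of 0.585, but the median gene itself stood at 0.54. The share of all genes past 1.5-fold on that scale was not counted, so nothing about the members can be read from the 5. Atrx stood at 1.10 to 1.64 under these scalings and matchings. Relative to its neighbours it was at 0.66 (-0.23 to 1.61) within 2 Mb, 0.86 (-0.03 to 1.80) by the 10 nearest genes on each side and 0.62 (-0.27 to 1.56) by highest summits. Only relative to all matched summits within 1 Mb, at 0.91 (0.02 to 1.85), was its interval above 0. Peaks with a −log10 q of 5 or more numbered 50 in shCTRL and 48 in shHMGB1, of which 94.0% and 97.9% were shared. When 50% of both peaks had to overlap, 51.9% and 56.9% of all were. With a pileup of at least 10 in both libraries, also added after seeing the data, they numbered 79 and 56. Flanks of 5 kb held 32 and 34 peaks and 17 and 14 nucleosome-free regions, so that the order of the peak numbers turned, and flanks of 50 kb held 140 and 110 peaks. Single libraries of unknown total depth limit every comparison.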
